A study of Homo sapiens with 12 samples.

Results

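Mitochondrial ribosomal protein genes were followed in C28/I2, an immortalised line of human chondrocytes, the cells of cartilage. They were taken by a rule on names, set with earlier results of these data known. It takes every gene whose symbol is MRPL or MRPS followed by a number and, in a few cases, a letter A, B or C. That rule took 78 of the 19215 gene symbols in the authors' deposited table, and all 78 had a value in each of the 3 comparisons it holds. By known structure, 51 of the 78 encode proteins of the large subunit, 26 of the small subunit, and MRPS36 of neither, since its protein is now assigned to the oxoglutarate dehydrogenase complex. MRPS30 and MRPS18A carry small-subunit names but sit in the large subunit and were counted there.

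Human mitochondria have their own ribosome, which translates the few proteins encoded in mitochondrial DNA, all of them core parts of the respiratory chain and ATP synthase. Every protein of that ribosome is encoded in the nucleus, made on cytosolic ribosomes and imported. Some descend from bacterial ribosomal proteins, and others have no bacterial counterpart and were added in the evolution of mitochondria. Of the genes described here, 46 encode bacterial homologues and 31 mitochondria-specific proteins, MRPS36 aside.

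The study asked whether natural products that block the receptor CXCR4 counter the signalling of its ligand, SDF-1α (CXCL12). There were 12 cultures in 4 groups of 3, all collected at 48 h for sequencing of total RNA. The DMSO group had 0.5% DMSO, the SDF1 group 50 nM SDF-1α, the SDF1_AS4 group the same dose of SDF-1α plus astragaloside IV at 10 µM (a plant saponin from Astragalus root), and the SDF1_SKHS group the same dose plus SKHS at 1%, a traditional Chinese medicine formula. DMSO is named for the DMSO group alone, so the solvent and SDF-1α cannot be told apart in the comparison of SDF1 with DMSO, and a solvent added with a product cannot be told apart from that product. The cells are 1 line, and no label says how the 3 cultures of a group were separated, so p-values measure the spread between these samples only.

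Per gene and comparison the table lists the log2 fold change with its p-value and q-value, and no value per sample. Values of single cultures, depth and overlap between groups are therefore not shown. A value after ± is a standard error implied by the deposited fold change and p-value, with 3 cultures a group. A gene was called at an adjusted p (the authors' q-value) under 0.05. The members were measured precisely, with implied standard errors of 0.08 to 0.21 and a median of 0.11 for SDF1 over DMSO, against a median of 0.15 over all genes. Without levels, the cartilage identity of the cells could be checked only by whether markers had a precise value. SOX9, the chondrocyte transcription factor, had an implied standard error of 0.10, and ACAN, which encodes the proteoglycan aggrecan, 0.15. COL11A2 had 0.19, MATN3 0.67 and COL2A1, which encodes the main cartilage collagen, 2.68, all for SDF1 over DMSO, in which COL9A1 had no value. The fibroblast collagen genes COL1A1, COL1A2 and COL3A1 had 0.09, 0.08 and 0.21. Some markers of both kinds moved with the treatments in the authors' deposited table. For SDF1 over DMSO, ACAN fell by 0.88, COL11A2 by 1.70, COL1A1 by 0.55 and COL3A1 by 0.51. SOX9 (-0.04), COL1A2 (-0.15), MATN3 (-0.07) and COL2A1 (0.58) were not called there. With SKHS over SDF1, SOX9 fell by 0.40, ACAN by 0.41, COL11A2 by 0.91, COL1A1 by 0.69, COL1A2 by 0.97 and COL3A1 by 0.85, while MATN3 (-0.46) and COL2A1 (-0.08) were not called. None of the 9 was called with astragaloside IV, and their part in the members' results was not tested. In bulk RNA, fewer cells that express a gene and less of its RNA per cell cannot be told apart.

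Promoter windows of RefSeq (GRCh38.p14), which run from 250 bases before to 50 bases after a gene's start, were found for 69 of the 78 genes. Of these, 5 are shown because the results below turn on their genes: MRPL33 rose most with SDF-1α, MRPS25 alone fell, MRPS33 rose most with SKHS, and MRPL17 and MRPL12 fell with SKHS. Only the 250 bases before the RefSeq start are printed. Gene coordinates below are the outermost ends in GENCODE 29, which can lie before that start: the printed stretch of MRPS33 lies inside the GENCODE gene, and those of the other 4 overlap the first bases of theirs. The stretches read 5′ to 3′ on the strand of the gene, and capitals mark matches to any of 6 motifs named after them.

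MRPL33, chr2:27771469-27771718, plus strand: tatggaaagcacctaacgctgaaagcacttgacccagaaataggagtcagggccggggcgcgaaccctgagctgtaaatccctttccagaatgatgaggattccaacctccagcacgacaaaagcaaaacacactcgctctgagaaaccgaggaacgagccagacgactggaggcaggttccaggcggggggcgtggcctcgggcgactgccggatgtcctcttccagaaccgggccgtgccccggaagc
MRPS25, chr3:15065316-15065565, minus strand: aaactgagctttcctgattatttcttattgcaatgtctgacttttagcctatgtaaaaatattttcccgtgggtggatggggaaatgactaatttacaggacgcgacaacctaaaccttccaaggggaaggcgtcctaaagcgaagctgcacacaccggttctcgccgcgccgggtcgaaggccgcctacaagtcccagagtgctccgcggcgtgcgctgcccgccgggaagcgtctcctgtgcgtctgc
MRPS33, chr7:141014953-141015202, minus strand: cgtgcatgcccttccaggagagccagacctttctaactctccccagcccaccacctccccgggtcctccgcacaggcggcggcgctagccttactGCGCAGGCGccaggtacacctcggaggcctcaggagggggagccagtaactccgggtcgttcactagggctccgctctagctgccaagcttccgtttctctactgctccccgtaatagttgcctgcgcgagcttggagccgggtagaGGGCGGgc
MRPL17, chr11:6683341-6683590, minus strand: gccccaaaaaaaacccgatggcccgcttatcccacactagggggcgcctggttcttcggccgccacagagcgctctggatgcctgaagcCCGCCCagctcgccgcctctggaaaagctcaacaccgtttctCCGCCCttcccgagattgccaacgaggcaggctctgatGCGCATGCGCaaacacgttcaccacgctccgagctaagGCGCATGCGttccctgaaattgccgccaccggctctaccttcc
MRPL12, chr17:81703117-81703366, plus strand: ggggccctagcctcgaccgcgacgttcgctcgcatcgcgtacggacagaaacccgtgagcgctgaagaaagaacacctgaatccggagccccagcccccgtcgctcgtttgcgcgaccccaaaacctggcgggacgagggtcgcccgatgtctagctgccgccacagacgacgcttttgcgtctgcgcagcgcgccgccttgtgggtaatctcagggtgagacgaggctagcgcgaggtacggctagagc

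The 6 motifs, searched on both strands over the whole window, were GCGCANGCG for NRF1, CCGGAAGT for ETS factors such as GABPA, AGATGGCGG for YY1, CCAAT for NF-Y, CACGTG for MYC and USF, and GGGCGG for SP1. Matches of different motifs were allowed to overlap, and none did in these 5 windows. The MRPS33 promoter held 1 NRF1 match and 1 SP1 match. The MRPL17 promoter held 3 NRF1 matches, of which the pair furthest from the start overlap on opposite strands, and 3 SP1 matches, the last of them after the start and so not printed. The printed stretches of MRPL33, MRPS25 and MRPL12 held none of these letters, which says only that and nothing of the factors.

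The widest gap in share was that of the YY1 letters. They stood in 13 of 69 member windows (18.8%) and in 347 of 14795 windows of all genes with an entry (2.35%). NRF1 letters were in 18.8% of member windows and 11.4% of all windows, and ETS letters in 15.9% and 6.48%. Of the other 3, CCAAT stood in 20 of 69 member windows and 36.3% of all windows, and the shares were 8.70% and 9.08% for CACGTG, and 60.9% and 60.5% for GGGCGG. These shares are descriptions with no test. The YY1 matches are shown as 25 bases each with the motif in capitals, read along the strand that carries the motif, for 12 genes. The match of MRPL22 ran too close to the end of its window to show.

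MRPL32, chr7:42932144-42932168, minus strand: tcgggtaaAGATGGCGGagcgcggg
MRPL36, chr5:1799858-1799882, plus strand: aggaaggaAGATGGCGGcggggggg
MRPL38, chr17:75904861-75904885, minus strand: cggagggaAGATGGCGGcgccctgg
MRPL42, chr12:93467515-93467539, plus strand: ttgaaacaAGATGGCGGgttcgtgg
MRPL46, chr15:88467363-88467387, minus strand: agaacgaaAGATGGCGGcgcccgta
MRPL50, chr9:101398578-101398602, minus strand: ctcatcgaAGATGGCGGcgcgatct
MRPL52, chr14:22829782-22829806, plus strand: atgacccaAGATGGCGGagccgtga
MRPS10, chr6:42217835-42217859, minus strand: gaccggcaAGATGGCGGcgcggaca
MRPS18A, chr6:43687765-43687789, minus strand: gtttttgaAGATGGCGGccctcaag
MRPS18B, chr6:30617856-30617880, plus strand: gtacgtcaAGATGGCGGcgtctgta
MRPS24, chr7:43869481-43869505, minus strand: ttggcccaAGATGGCGGcctccgtg
MRPS30, chr5:44808953-44808977, plus strand: gcgggcaaAGATGGCGGcggccagg

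Of these 12 sites, 9 began within the first 25 bases of the transcript, 10 lay on the strand of the gene, and the median position was 10.5 bases after the start. The motif contains ATG, the letters of a start codon, and whether a site is the start of translation was not tested. The remaining sites of MRPL32 and MRPL36 lay on the other strand, on the side of the neighbouring genes PSMA2 and NDUFS6. The site of MRPL52 began at position -97 from the start.

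With SDF-1α, 30 of the genes were called higher than in DMSO, by small amounts, and 47 were not called. Higher in SDF1 than in DMSO in the authors' deposited table were 30 of 78 (38.5%), and 1 was lower, where 17.2% of all 18162 genes tested were called higher and 17.5% lower. The median log2 fold change of the members was 0.23, with quartiles of 0.10 and 0.33, and that of all genes was -0.01. Above 0 were 68 of 78. Both subunits were represented, with 18 of 51 large-subunit genes and 12 of 26 small-subunit genes higher. Bacterial homologues made up 20 of the 30, out of 46, and mitochondria-specific proteins the other 10, out of 31.

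**Figure D1:**
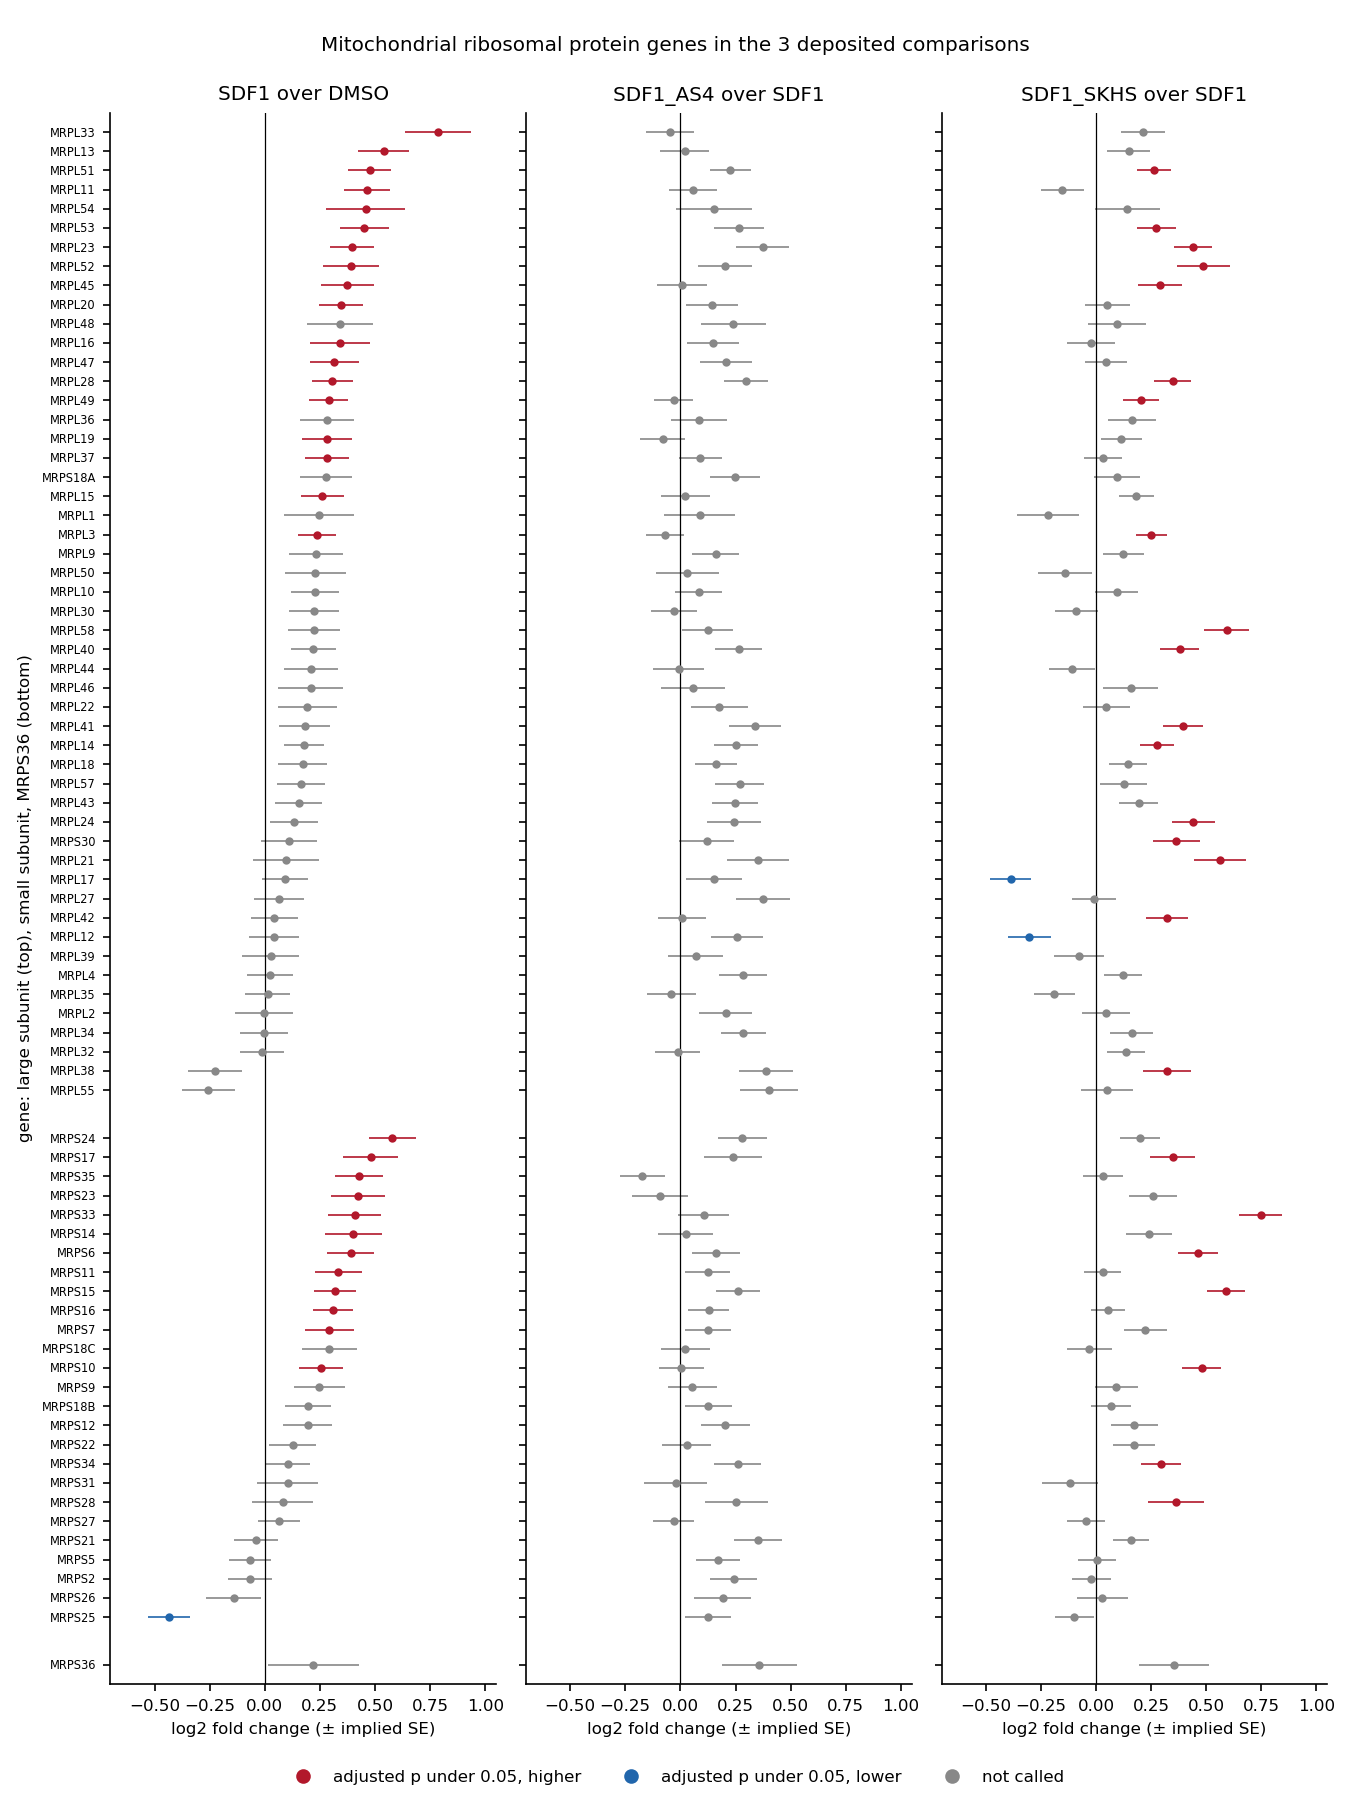
Log2 fold change (x axis, ± implied standard error, 3 cultures a group) of each of the 78 genes (y axis, by subunit and by the value for SDF1 over DMSO) in the 3 comparisons of the authors' deposited table; red and blue points passed an adjusted p of 0.05. In the left panel 30 genes are red and only MRPS25 is blue, in the middle panel no gene is coloured, and in the right panel 24 are red and MRPL17 and MRPL12 are blue.

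MRPL33, the homologue of bacterial L33 in the large subunit, rose most, by 0.79 ± 0.15 (1.72-fold, DESeq2 adjusted p = 1.36e-06 in the authors' deposited table). The gene lies on chromosome 2 from 27771717 to 27988087 on the plus strand (GRCh38, GENCODE 29), and its transcripts are the shortest of the 78, with a median of 461 nt. MRPS24, the homologue of bacterial S3 at the entry of the mRNA channel, rose by 0.58 ± 0.11 (1.49-fold, adjusted p = 4.26e-07). It shares 606 exon bases on the same strand with the readthrough gene URGCP-MRPS24, and how reads were split between these genes is not known. MRPL13 rose by 0.54 ± 0.12 and MRPL11, which forms the base of the stalk where translation factors dock, by 0.46 ± 0.10. MRPS17, a small-subunit homologue of bacterial S17, rose by 0.48 ± 0.12. Among mitochondria-specific proteins of the large subunit, MRPL51 rose by 0.48 ± 0.10, MRPL54 by 0.46 ± 0.18 and MRPL53 by 0.45 ± 0.11. The other 22 called higher lay between 0.24 ± 0.08 for MRPL3 and 0.43 ± 0.11 for MRPS35, and the 47 genes not called between -0.26 for MRPL55 and 0.34 for MRPL48. The 95% interval of each of the 8 genes described one by one here lay above 0, which follows from their being called. The intervals of genes next to each other in size overlapped.

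MRPS25, a mitochondria-specific protein of the small subunit, fell by 0.44 on the log2 scale (implied standard error 0.10, a ratio of 0.739, adjusted p = 3.29e-05). It lies on chromosome 3 from 15042460 to 15065335 on the minus strand. NR2C2, a nuclear receptor gene on the opposite strand, shares 756 exon bases with it and also fell, by 0.90 ± 0.11 (adjusted p = 1.32e-14). The sources used here do not say whether reads were counted by strand, so reads of these 2 genes cannot be told apart. MRPL55 and MRPL38 in the large subunit had values of -0.26 ± 0.12 and -0.23 ± 0.12 and were not called (adjusted p = 0.085 and 0.15).

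Some members of special role did not pass the threshold for SDF1 over DMSO. The values of the 3 human relatives of bacterial S18 were 0.28 ± 0.12 for MRPS18A in the large subunit, 0.20 ± 0.10 for MRPS18B and 0.29 ± 0.12 for MRPS18C, which sits where S18 does in bacteria, with adjusted p of 0.051, 0.14 and 0.053. MRPS18C and MRPS18A share exon bases with other genes on the opposite strand, as given at the end, so their reads are uncertain. MRPL12, a stalk protein that also binds the mitochondrial RNA polymerase, was at 0.04 ± 0.11. MRPL58, a peptidyl-tRNA hydrolase built into the large subunit that rescues stalled ribosomes, was at 0.22 ± 0.12. MRPL41 was at 0.18 ± 0.12, MRPS30 at 0.11 ± 0.13 and MRPS36 at 0.22 ± 0.21.

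The members have short transcripts, with a median of 1137 nt against 2378 nt over all annotated genes, at a like GC content (50.3% and 50.1%). Precisely measured genes were split into 10 bins of equal size by length. In the bin of the shortest transcripts, which holds 36 members, the median log2 fold change for SDF1 over DMSO was 0.28 over all genes and 0.25 over the members. In the next bin the medians were 0.15 over all genes and 0.20 over 21 members, and in the bin after that 0.08 and 0.23 (12 members). With the trends of all genes with transcript length and GC content removed, 11 members were higher and 5 lower. The members' median was then 0.07, and 10 of the 31 calls were kept. The share of all genes called on that scale is not given, here or for the other trend-removed counts below. MRPS25 fell further on that scale (-0.62, adjusted p = 1.47e-09), MRPS24 was at 0.40 and stayed called, and MRPL33 was at 0.32 and did not. MRPL41, with the highest GC content of the 78 at 71.9%, was not called in the deposited table and was higher once the trends were removed (adjusted p = 1.07e-05). Length and GC content moved with the result in this way, and their part in it was not tested further. When p-values were taken from a t distribution with 4 degrees of freedom, no member was called. The share of all genes called with that distribution is not given, here or for its other counts below.

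**Figure D2:**
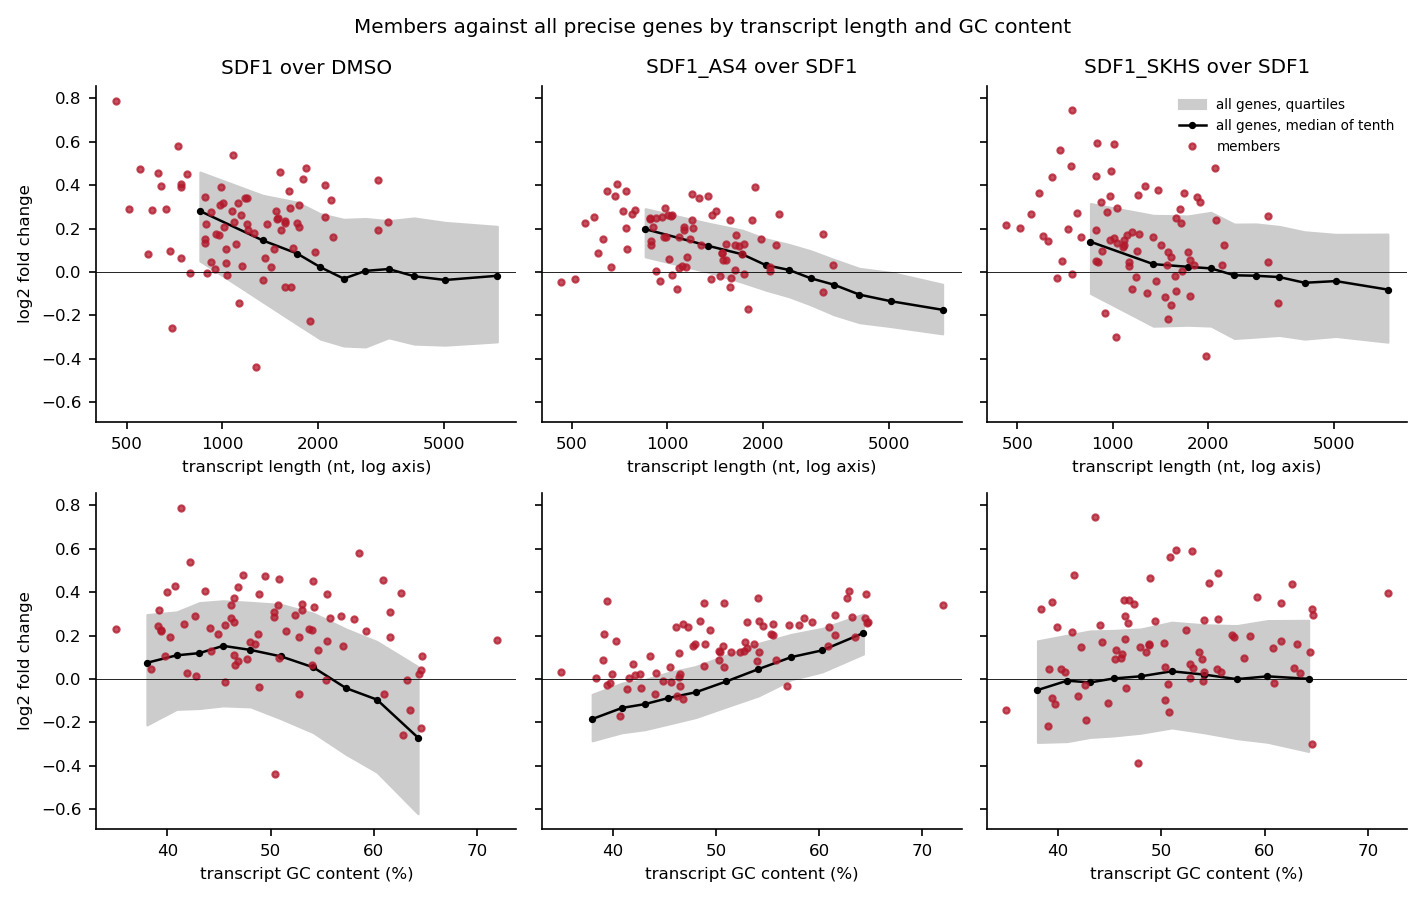
Log2 fold change (y axis) against median transcript length in nt (top, log x axis) and GC content in percent (bottom) for the 78 members (red points), with the median (black line) and quartiles (grey) of all precisely measured genes in 10 bins of each property, for the 3 comparisons of the authors' deposited table. The members gather at the short end, where the black line is itself above 0 in all 3 comparisons, and in the middle lower panel members and all genes both climb with GC content.

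Adding astragaloside IV to SDF-1α called no member. By DESeq2 in the authors' deposited table, 0 of 78 passed an adjusted p of 0.05 for SDF1_AS4 over SDF1, where 0.199% of 18133 genes were called higher and 0.16% lower. At an unadjusted p under 0.05, 24 of 78 members were higher and 0 lower, against 1423 higher and 1547 lower of 18133 genes. The members' median was 0.15 and 66 of 78 were above 0, with the median of all genes at 0.01. The lowest adjusted p was that of MRPS21, the homologue of bacterial S21, at 0.078, with 0.35 ± 0.11. The 95% interval for MRPS21 ran from 0.14 to 0.56 before adjustment for the number of genes.

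The 5 highest values for SDF1_AS4 over SDF1 were 0.40 ± 0.13 for MRPL55, the homologue of bacterial L31, 0.39 ± 0.12 for MRPL38, 0.37 ± 0.12 for MRPL27, which reaches towards the peptidyl transferase centre, 0.37 ± 0.12 for MRPL23 at the exit of the peptide tunnel, and 0.36 ± 0.17 for MRPS36. The 5 lowest were -0.17 ± 0.10 for MRPS35, -0.09 ± 0.13 for MRPS23, -0.08 ± 0.10 for MRPL19, -0.07 ± 0.09 for MRPL3 and -0.05 ± 0.11 for MRPL33. MRPL55 and MRPL38 thus had the lowest values of the large subunit for SDF1 over DMSO and the highest for SDF1_AS4 over SDF1, with the same 3 SDF1 libraries in both comparisons. Across the 78 genes the value with astragaloside IV had a Spearman's rho of 0.64 with GC content, and across 11720 precisely measured genes of 0.58, a description over genes of the same libraries. In the bin of shortest transcripts the median was 0.20 both over all genes and over members. With both trends removed the members' median was 0.02 and no member was called.

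With SKHS added to SDF-1α, 24 of the genes were higher and 2 lower than with SDF-1α alone. The 24 are 30.8% of the 78 in the authors' deposited table, where 15.8% of 18251 genes were called higher and 16.7% lower. The members' median was 0.15, with quartiles of 0.03 and 0.29, and 62 of 78 were above 0; the median of all genes was 0.0019. In the large subunit 17 of 51 were higher, made up of 11 of 21 mitochondria-specific proteins and 6 of 30 bacterial homologues. Both members that fell were bacterial homologues of the large subunit. In the small subunit 7 of 26 were higher, 5 of them among 16 bacterial homologues. Whether these shares differ between the classes was not tested.

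MRPS33, a mitochondria-specific protein of the small subunit, rose most with SKHS, by 0.75 ± 0.10 (1.68-fold, DESeq2 adjusted p = 1.63e-13 in the authors' deposited table). It is on chromosome 7 from 141002610 to 141015228 on the minus strand. MRPL58, the ribosome-rescue hydrolase, rose by 0.59 ± 0.10 (1.51-fold, adjusted p = 9.81e-08) and MRPS15, a homologue of bacterial S15, by 0.59 ± 0.09 (adjusted p = 2.27e-10). The large-subunit genes MRPL21, MRPL52 and MRPL24 rose by 0.56 ± 0.12, 0.49 ± 0.12 and 0.44 ± 0.10. The small-subunit genes MRPS10 and MRPS6 rose by 0.48 ± 0.09 and 0.46 ± 0.09. MRPS6 shares 176 exon bases on the same strand with SLC5A3, an inositol transporter gene, which went the other way with SKHS (-1.42 ± 0.13). MRPL41 and MRPS30 also rose, by 0.39 ± 0.09 and 0.37 ± 0.11, while MRPS36 was at 0.35 ± 0.16 and was not called (adjusted p = 0.078). The other 14 called higher lay between 0.20 ± 0.08 for MRPL49 and 0.44 ± 0.09 for MRPL23, the protein at the tunnel exit. MRPS18A, MRPS18B and MRPS18C had values of 0.09 ± 0.10, 0.07 ± 0.09 and -0.03 ± 0.10.

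MRPL17, the homologue of bacterial L17, fell by 0.39 on the log2 scale with SKHS (implied standard error 0.09, a ratio of 0.765, adjusted p = 0.000239). It lies on chromosome 11 from 6680782 to 6683401 on the minus strand. MRPL12 fell by 0.30 (implied standard error 0.10, a ratio of 0.811, adjusted p = 0.00947). Its gene on chromosome 17, from 81703357 to 81707526 on the plus strand, shares 701 exon bases on the same strand with another annotated gene, AC139530.2, which has no row of its own in the table. MRPL1 and MRPL35 were the next lowest with the values -0.22 ± 0.14 and -0.19 ± 0.09, and were not called. With the length and GC trends removed, 22 of the 26 calls were kept, MRPS33 and MRPL58 stood at 0.62 and 0.48, and MRPL17 and MRPL12 at -0.43 and -0.36. The members' median moved to 0.06. Taken from a t distribution with 4 degrees of freedom, the p-values called 2 members higher, MRPS33 and MRPS15, and none lower. How many of all genes lost their call in this way is not given.

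The comparisons of each product group with DMSO and with each other are not in the table. They were computed from sums and differences of its log2 fold changes, with a standard error that is an upper bound, so their calls are conservative. For SDF1_AS4 over DMSO, 28 of 78 (35.9%) were higher and none lower by the normal test with Benjamini-Hochberg adjustment, where 10.8% of genes were called higher and 11.6% lower. At an unadjusted p under 0.05, 46 of 78 members were higher and 1 lower, against 2664 higher and 2834 lower of 17895 genes. The highest values were 0.86 ± 0.15 for MRPS24, 0.77 ± 0.16 for MRPL23 and 0.74 ± 0.19 for MRPL33. With the length and GC trends removed 3 members were higher and 3 lower.

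For SDF1_SKHS over DMSO, 42 of 78 (53.8%) were higher and 1 lower, where 18.1% of genes were called higher and 19.1% lower. MRPS33 was at 1.15 ± 0.15, a 2.23-fold difference from the DMSO group. MRPL33 followed at 1.00 ± 0.18 and MRPS15 at 0.91 ± 0.13. MRPS25 was the member called lower, with a value of -0.53 ± 0.13. With the trends removed 23 members were higher and 3 lower.

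**Figure D3:**
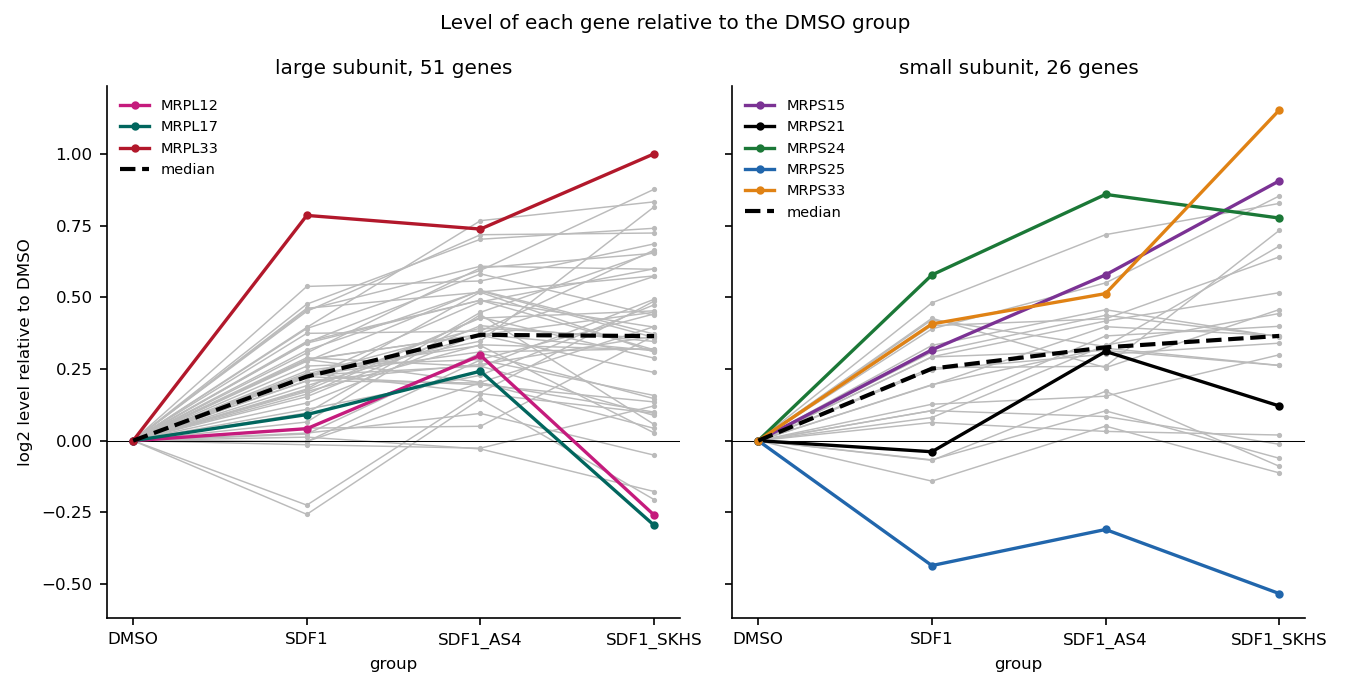
Log2 level of each gene relative to the DMSO group (y axis) in the 4 groups (x axis), for the 51 large-subunit genes (left) and the 26 small-subunit genes (right); grey lines are genes, coloured lines are named, the dashed line is the median, and values for SDF1_AS4 and SDF1_SKHS are computed from the authors' deposited table. MRPL12 and MRPL17 turn down in SDF1_SKHS while MRPS33 reaches 1.15, and MRPS25 is below DMSO in all 3 groups.

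The products were also set against each other. For SDF1_SKHS over SDF1_AS4, 4 members were higher and 2 lower, where 8.5% of genes were called higher and 10.4% lower, and the members called higher were 5.13%. With the length trend alone removed 7 were higher. With the length and GC trends removed, 4 of the calls were kept and 2 were not, and MRPL12 and MRPL17 were not both still lower. Against a t distribution with 4 degrees of freedom no member was called. MRPS33 was higher with SKHS by 0.64 ± 0.15, MRPS10 by 0.47 ± 0.14, MRPL58 by 0.47 ± 0.16 and MRPL3, the homologue of bacterial L3, by 0.32 ± 0.11 (normal test, adjusted p = 0.000292, 0.00441, 0.0175 and 0.0247). MRPL12 and MRPL17 were lower with SKHS than with astragaloside IV, at -0.56 ± 0.15 and -0.54 ± 0.16 (adjusted p = 0.00281 and 0.00532). The other 72 genes missed the threshold, which does not show that the products act alike on them. The members' median was -0.01, and 37 of 78 were above 0.

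The same genes can be read side by side across the comparisons, which share the SDF1 libraries. MRPS33 was at 0.41 ± 0.12 with SDF-1α against DMSO, at 0.11 ± 0.12 when astragaloside IV was added and at 0.75 ± 0.10 when SKHS was added. Values of the next 3 genes follow the same order. MRPL23 at the tunnel exit was at 0.40 ± 0.10, 0.37 ± 0.12 and 0.44 ± 0.09. MRPL45, which anchors the ribosome at the inner membrane next to that exit, was at 0.37 ± 0.12, 0.01 ± 0.11 and 0.29 ± 0.10. MRPL33 was at 0.79 ± 0.15, -0.05 ± 0.11 and 0.22 ± 0.10, called in the first alone. In the computed levels, the DMSO group was the lowest of the 4 for 63 of 78 genes (80.8%), against 31.6% of all 17821 genes with a value in each comparison. With the length and GC trends removed it was the lowest for 42 of 78 (53.8%). SDF1_SKHS was the highest group for 37 members, 47.4% against 30.2% of all genes, and SDF1_AS4 for 35, 44.9% against 17.5%. With the trends removed these counts were 37 and 18. Shares of all genes with the trends removed are not given here, so the trend-removed counts have no background.

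Other lists of mitochondrial and ribosomal genes are given by their counts, to be read against the same shares of all genes as above and with no test between lists. Of 77 cytosolic ribosomal protein genes all 77 were higher for SDF1 over DMSO, with a median of 0.49, and 60 for SDF1_SKHS over SDF1, with a median of 0.28. Of 76 nuclear genes of the respiratory chain, whose complexes also hold the products of the mitochondrial ribosome, 58 were higher and 1 lower for SDF1 over DMSO (median 0.35), and 29 higher and 6 lower for SDF1_SKHS over SDF1. With the length and GC trends removed, the medians for SDF1 over DMSO were 0.19 for the cytosolic ribosomal proteins, 0.10 for the respiratory chain and 0.07 for the members, and those for SDF1_SKHS over SDF1 were 0.14, 0.04 and 0.06.

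**Figure D4:**
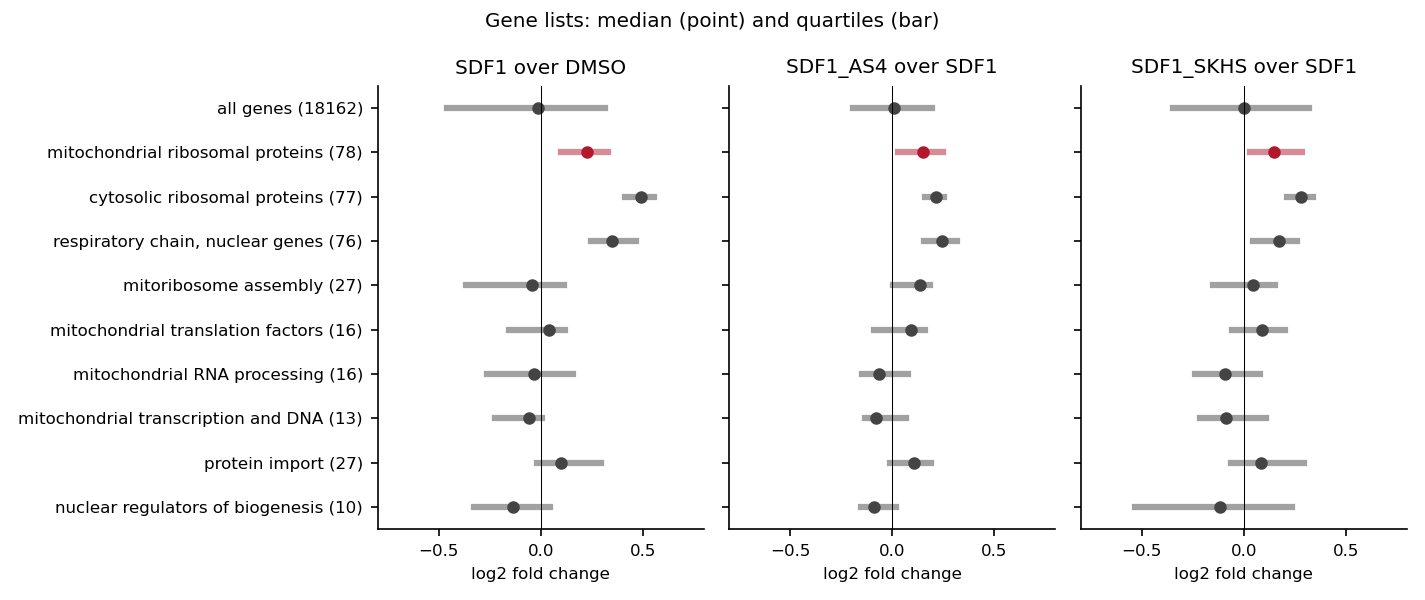
Median (point) and quartiles (bar) of the log2 fold change (x axis) of the 78 members (red), of all genes and of 8 other lists (y axis, with the number of genes measured for SDF1 over DMSO) in the 3 comparisons of the authors' deposited table. For SDF1 over DMSO the members' median of 0.23 lies between that of all genes at -0.01 and those of the respiratory chain at 0.35 and the cytosolic ribosomal proteins at 0.49, while the assembly list is at -0.04.

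Factors that build the mitochondrial ribosome were called in both directions. Of 27 assembly factors, 3 were higher and 7 lower for SDF1 over DMSO, with a median of -0.04. RPUSD3, a pseudouridine synthase, rose by 0.42 ± 0.12 and the rRNA-binding factor NGRN by 0.40 ± 0.10. METTL17 fell by 0.68 (implied standard error 0.09), the GTPase MTG1 by 0.51 (0.12) and MTERF4, which brings a methyltransferase to the large subunit, by 0.48 (0.11). With SKHS, 5 rose and 5 fell: YBEY, RPUSD3 and the GTPase MTG2 rose by 0.55 ± 0.12, 0.52 ± 0.10 and 0.51 ± 0.09, and RBFA, a small-subunit maturation factor, fell by 0.50 (0.10).

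Among 16 translation factors, 2 were higher and 3 lower for SDF1 over DMSO. TUFM, the elongation factor that delivers aminoacyl-tRNA, fell by 0.35 (0.08) and MRRF, which recycles ribosomes, by 0.37 (0.12). With SKHS added both rose, by 0.20 ± 0.07 and 0.40 ± 0.11, with the SDF1 libraries shared. The initiation factor MTIF2 rose by 0.79 ± 0.09 with SKHS. MTRF1L, a release factor, rose by 0.38 ± 0.10 for SDF1 over DMSO and fell by 0.24 (0.09) for SDF1_SKHS over SDF1.

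The machinery that makes and processes the mitochondrial RNAs gave mixed calls. Of 13 genes of mitochondrial transcription and DNA upkeep, SSBP1, the single-strand binding protein, rose by 0.35 ± 0.08 for SDF1 over DMSO and POLRMT, the RNA polymerase that MRPL12 binds, fell by 0.67 (0.11). Of the 13, 3 rose and 3 fell with SKHS added. POLRMT rose by 0.26 ± 0.09, TOP1MT by 0.30 ± 0.12 and the helicase TWNK by 0.51 ± 0.13. The DNA polymerase POLG fell by 0.97 (0.09), MGME1 by 0.70 (0.10) and LONP1 by 0.21 (0.09). Of 16 RNA processing genes, 3 were higher and 4 lower for SDF1 over DMSO and 2 higher and 4 lower for SDF1_SKHS over SDF1. Of 27 protein import genes, 7 were higher and 2 lower, then 9 and 3.

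None of 10 nuclear regulators of mitochondrial biogenesis was higher for SDF1 over DMSO and 4 were lower. PPARGC1B, a coactivator, fell by 0.70 (0.17), NRF1, whose motif was searched above, by 0.45 (0.13), and the coactivator PPRC1 by 0.34 (0.09). With SKHS added, 3 rose and 3 fell. TFEB rose by 1.11 ± 0.16, the nuclear receptor ESRRA by 0.44 ± 0.09 and YY1 by 0.30 ± 0.08. NRF1 fell by 0.71 (0.14), MYC by 0.61 (0.08) and GABPB1, a partner of the ETS factor GABPA, by 0.61 (0.11). The YY1 letters stood in 5 of 21 windows of members called higher for SDF1_SKHS over SDF1 and in 8 of 48 windows of other members. NRF1 letters stood in 3 of 21 and 10 of 48, and GGGCGG in 17 of 21 and 25 of 48, and ETS letters in 6 of 21 and 5 of 48. CCAAT stood in 4 of 21 and 16 of 48, and CACGTG in 2 of 21 and 4 of 48. For SDF1 over DMSO the YY1 letters stood in 3 of 27 windows of members called higher and 10 of 42 of the others. ETS letters stood in 7 of 27 and 4 of 42, NRF1 letters in 4 of 27 and 9 of 42, and GGGCGG in 16 of 27 and 26 of 42. The counts were 5 of 27 and 15 of 42 for CCAAT, and 3 of 27 and 3 of 42 for CACGTG. All are counts with no test.

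The 5 proteins of the mitochondrial ribosome that carry other symbols were described apart. CHCHD1 and the GTP-binding DAP3 rose for SDF1 over DMSO, by 0.48 ± 0.14 and 0.20 ± 0.08, and PTCD3 fell by 0.40 (0.10). For SDF1_SKHS over SDF1, GADD45GIP1 rose by 0.37 ± 0.09, and DAP3 and PTCD3 fell by 0.40 (0.08) and 0.31 (0.10). CHCHD1, DAP3 and PTCD3 belong to the small subunit and GADD45GIP1 to the large.

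Position in the genome gave another view of the members. They lie on 21 chromosomes, and 29 of them have a protein-coding gene that starts on the opposite strand within 1000 nt. MRPL46 and MRPS11 are such a pair themselves, with start sites 34 nt apart on chromosome 15; their values for SDF1 over DMSO were 0.21 ± 0.15 and 0.33 ± 0.11, and only MRPS11 was called. For the other 27 with a measured neighbour, 8 members were higher and 0 lower for SDF1 over DMSO, while 4 neighbours were higher and 9 lower. Over all genes 17.2% were higher and 17.5% lower. With SKHS over SDF1 the counts were 7 and 0 for members and 4 and 8 for neighbours, where 15.8% of all genes were higher and 16.7% lower. No test was made between members and neighbours.

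Some pairs moved together and others apart. MRPL47 and NDUFB5, a respiratory chain gene with a start 36 nt away, rose by 0.32 ± 0.11 and 0.42 ± 0.10 for SDF1 over DMSO, and MRPL49 and FAU, which encodes a cytosolic ribosomal protein, by 0.29 ± 0.09 and 0.42 ± 0.09. MRPL13 rose by 0.54 ± 0.12 while MTBP, whose start lies 2 nt away and overlaps it, fell by 1.25 (0.18). With SKHS, MRPL21 rose by 0.56 ± 0.12 while IGHMBP2, a helicase gene 7 nt away, fell by 0.61 (0.13). MRPL51 rose by 0.26 ± 0.08 while NCAPD2, a condensin gene that shares 463 exon bases with it on the opposite strand, fell by 1.46 (0.07). These pairs were chosen by position and by their calls. Of 27 pairs, 2 had both genes higher for SDF1 over DMSO, and 2 had the member higher and the neighbour lower. For SDF1_SKHS over SDF1 the counts were 2 and 3. The 2 with both higher there were MRPL14 with TMEM63B, and MRPL49 with FAU.

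**Figure D5:**
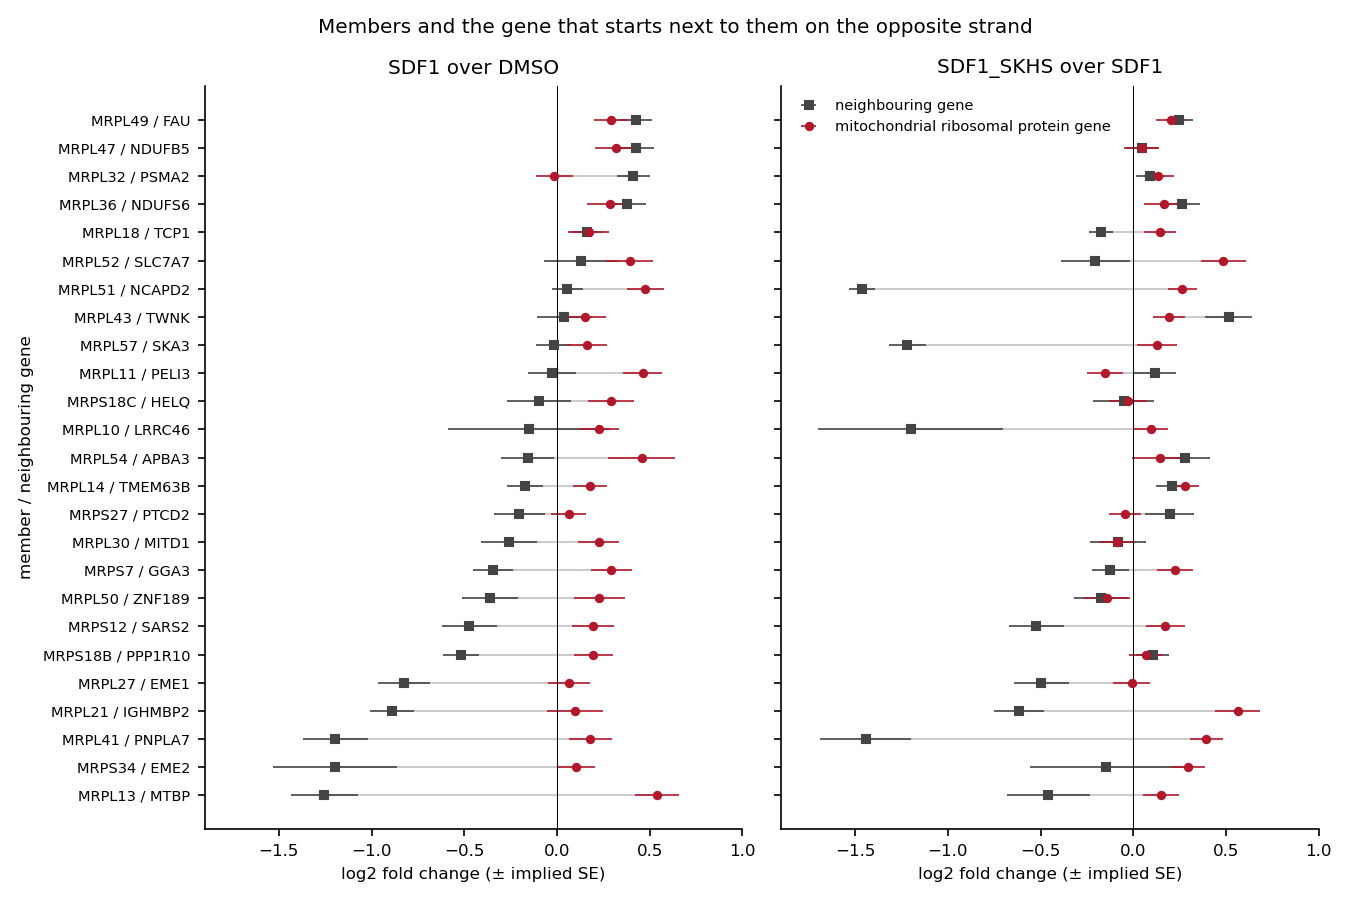
Log2 fold change (x axis, ± implied standard error) of 25 members (red circles) and of the gene that starts within 1000 nt on the opposite strand (grey squares), 1 pair a line (y axis), for SDF1 over DMSO (left) and SDF1_SKHS over SDF1 (right) in the authors' deposited table; pairs whose neighbour had an implied standard error above 0.5 are left out. In the left panel the red circles lie between -0.01 and 0.54, while neighbours spread from -1.25 to 0.42.

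In all, 25 members share exon bases with another protein-coding gene, 17 of them on the opposite strand and 8 on the same strand, and 34 have at least 1 annotated pseudogene. Reads of such genes can be assigned to the wrong copy or strand, and the values of all of them are uncertain to that degree. By shared exon bases the largest overlaps were those of MRPS18C with ABRAXAS1 (1296), MRPS25 with NR2C2 (756), MRPL43 with SEMA4G (738), MRPL46 with AC013489.1 (721), MRPL12 with AC139530.2 (701), MRPS24 with URGCP-MRPS24 (606) and MRPS18A with RSPH9 (604).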

How the data were processed

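RNA of 12 cultures was sequenced with an in-house kit of the sequencing provider, per the labels' protocols. The tools named in the submitters' processing notes are DESeq2 1.4.5, RSEM 1.2.12 and Bowtie2 2.2.5, on build GRCh38.p13; strand use is not given in the sources used here. The authors deposited log2 fold changes, p-values and q-values for 3 comparisons, with no values per sample, so depth is unknown and the count tests planned for count tables were not used. All 1046 values that could show the direction had the second-named group over the first. The deposited q-value equals a Benjamini-Hochberg adjustment of the p-value within 1.29e-14.

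An implied standard error (the log2 fold change over the normal quantile of the p-value, assuming a Wald test) was computed, and 3 further comparisons from sums and differences of log2 fold changes, with both variances added. Trends were additive splines with 6 degrees of freedom in log2 transcript length and GC content (GENCODE 29, 95.8% of symbols annotated, all 78 members), fitted to genes with a standard error of at most 0.3. Calling, the implied standard error and the removal of trends were tested on simulated data. Far fewer genes changed there than were called here, so the share recovered does not carry over to the members. A member not called may still have changed. Python 3.11.15, numpy 2.4.6, pandas 2.3.3, scipy 1.17.1, patsy 1.0.2 and matplotlib 3.10.9 were used.

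The members, the lists and the tests were chosen with earlier results of these data known. Named in full were the members called in a comparison, at most 8 a direction by size, with the 4 of smallest p for SDF1 over DMSO; where none was called, the 5 highest and 5 lowest; always MRPS18A, MRPS18B, MRPS18C, MRPL12, MRPL41, MRPL58, MRPS30 and MRPS36; and at most 3 genes a direction of each other list. Neighbouring and overlapping genes, and a few uncalled members beside them, were named after their values were seen. The NRF1 and YY1 motifs were each shortened by 1 base after the files were seen. Alternatives tried were another threshold, centring, removal of trends, a filter on imprecise genes, a t distribution with 4 degrees of freedom and another member list.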

Additional observations from a re-analysis of the deposited data

How the results depend on the processing

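No paired analysis was possible because the deposited table holds no values per sample. For the same reason no replicate was left out. Shares of all genes called under the alternatives below are not given, so these member counts have no background. Against a t distribution with 4 degrees of freedom, which is harsher by construction, calls for SDF1 over DMSO were 0 higher and 0 lower, for SDF1_SKHS over SDF1 2 and 0, for SDF1_AS4 over DMSO 0 higher, for SDF1_SKHS over DMSO 11 and 0, and for SDF1_SKHS over SDF1_AS4 0 and 0.

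With length and GC trends removed, calls were 11 higher and 5 lower for SDF1 over DMSO, 3 and 3 for SDF1_AS4 over DMSO, 23 and 3 for SDF1_SKHS over DMSO, and 1 lower for SDF1_SKHS over SDF1_AS4; medians moved to 0.0732 (SDF1 over DMSO), 0.114 (SDF1_AS4 over DMSO), 0.138 (SDF1_SKHS over DMSO) and, with astragaloside IV against SDF1 alone, 0.0179. With length alone removed, they were 14 and 2, 4 and 2, and 24 and 4, with 7 higher for SDF1_SKHS over SDF1_AS4, and medians of 0.122 for SDF1_AS4 over DMSO, 0.192 for SDF1_SKHS over DMSO and 0.0202 for SDF1_AS4 over SDF1. With GC alone removed, 1 was lower for SDF1_AS4 over DMSO, 2 for SDF1_SKHS over DMSO and 1 for SDF1_SKHS over SDF1_AS4. Centring gave 2 lower for SDF1 over DMSO and 2 for SDF1_SKHS over DMSO, and an adjusted p under 0.01 gave 2 higher for SDF1_SKHS over SDF1_AS4. Adding DAP3, PTCD3, CHCHD1, AURKAIP1 and GADD45GIP1 and leaving out MRPS36 gave 2 lower for SDF1 over DMSO, 1 for SDF1_AS4 over DMSO, 2 for SDF1_SKHS over DMSO and 4 for SDF1_SKHS over SDF1. The lower calls gained with that list are those of PTCD3 and, for SDF1_SKHS over SDF1, also of DAP3. The cause of the other changes was not tested. For GC alone, centring and the other member list, only lower calls are given above, and members were called higher too. For SDF1 over DMSO the higher calls were 29, 23 and 32 in that order. An adjusted p under 0.01 left 21 higher and 1 lower in that comparison. The median for SDF1_SKHS over SDF1_AS4 was near 0 and took either sign, from -0.03 to 0.07.

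Of 511 pairs of a named gene and an alternative, 438 kept their side of the threshold, 66 lost a call, 7 gained one and 0 reversed a called direction; 15 uncalled values changed sign. Depth is unknown, and 3 cultures a group limit the precision.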
